A study of Mus musculus with 12 samples.

Results

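The 37 genes described here encode the machinery of homologous recombination, the Fanconi anaemia pathway and the replication checkpoint. They were chosen by name, as a list of symbols, from the 55536 gene lines of the table, with earlier results of these data known. Each of the 37 symbols stood on exactly 1 line, and all 37 passed the filter on low values. The cells were B16.F10, a mouse melanoma line of C57BL/6 background, transfected for 72 h with an siRNA against Prmt7, a protein arginine methyltransferase, or with siLuc as the control siRNA. IFN-γ (interferon gamma) was added for the last 24 h in one arm of each siRNA. The 4 groups were siPRMT7 cells with IFN-γ, siPRMT7 cells without it, siLuc cells with IFN-γ and siLuc cells without it, with 3 libraries each. All 12 libraries came from transfected cells of this 1 line, and the labels do not say whether libraries of a group came from separate cultures, so p-values measure the spread between these libraries, which may be technical.

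Homologous recombination repairs a DNA break that cuts both strands by copying the intact sister chromatid. The ends are trimmed to single strands, and BRCA2 with its partners prepares them to pair with the matching sequence. The Fanconi pathway removes crosslinks that tie the DNA strands together: a core complex adds ubiquitin to FANCD2 and FANCI, and repair then runs through nucleases and recombination. ATR, CHK1 and claspin slow replication when forks stall. Many of these genes are known to be expressed mainly in dividing cells, around S phase.

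Library totals ran between 18.971 M and 30.978 M reads, per the file headers. Prmt7 stood at 6.36, 6.30 and 6.08 rlog units in siPRMT7 cells with IFN-γ, against 10.26, 10.24 and 10.26 in siLuc cells with IFN-γ. Without IFN-γ it stood at 6.16, 6.32 and 6.41 in siPRMT7 cells, against 10.16, 10.34 and 10.24 in siLuc cells. An rlog unit is a step of 1 on the log2 scale of the regularised logarithm, which pulls the values of weakly expressed genes towards their mean and so understates their changes. All 7 melanocytic markers (such as Tyr and Pmel) passed the filter, but their mean level differed between groups. It was lowest in siPRMT7 cells with IFN-γ, at 14.53 to 14.61 rlog units, and highest in untreated siLuc cells, at 15.27 to 15.31. In between were siPRMT7 cells without IFN-γ (14.99 to 15.01) and siLuc cells with it (14.98 to 15.05). All 10 genes listed as a check on IFN-γ were higher with it, by a median of 4.56 in siPRMT7 cells and 6.25 in siLuc cells.

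The members with the largest and the smallest differences under the knockdown in IFN-γ are shown first by their upstream sequence, where the RefSeq promoter table for GRCm38.p6 holds one. It held 28 of the 37 members. Fancd2, with the largest difference, had no entry. Bard1 and Clspn were the next in size, and Rad52, Fancg and Fance had the smallest differences. Each sequence below runs 5′ to 3′ on the gene's strand within the 250 bases before the start, limited to bases that lie in no annotated exon, and capitals mark an E2F word (1 of TTTCCCGC, TTTGGCGC, TTTCGCGC and TTTGCCGC on either strand).
Bard1 (chr1:71103147-71103222, minus strand): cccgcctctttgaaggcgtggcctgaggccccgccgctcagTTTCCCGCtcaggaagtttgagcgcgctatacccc
Clspn (chr4:126556730-126556934, plus strand): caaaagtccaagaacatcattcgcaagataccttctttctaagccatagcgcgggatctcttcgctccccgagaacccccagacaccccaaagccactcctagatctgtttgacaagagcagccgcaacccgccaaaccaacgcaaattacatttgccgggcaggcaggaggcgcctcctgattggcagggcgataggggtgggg
Rad52 (chr6:119902654-119902697, plus strand): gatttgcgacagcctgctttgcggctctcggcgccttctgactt
Fancg (chr4:43010507-43010551, minus strand): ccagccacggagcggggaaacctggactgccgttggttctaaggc
Fance (chr17:28313280-28313518, plus strand): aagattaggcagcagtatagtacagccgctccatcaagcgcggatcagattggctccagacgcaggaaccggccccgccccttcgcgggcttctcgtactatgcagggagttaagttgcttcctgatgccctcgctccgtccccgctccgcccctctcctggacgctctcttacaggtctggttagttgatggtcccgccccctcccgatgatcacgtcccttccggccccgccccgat

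E2F words are bound by the E2F transcription factors, which drive genes of the G1-to-S transition. Within the 250 bases, 4 of the 28 members held an E2F word (14.3%), against 2.16% of the 27025 genes with a promoter in the table. The 4 were Bard1, Brca2, Fancg and Chek2. Distances are counted from the RefSeq start, which for Bard1 and Fancg lies inside the gene as GENCODE annotates it. On the minus strand those annotated genes begin at 71103146 and 43010506, directly beside the printed stretches. The E2F word of Bard1 began 209 bases before the RefSeq start and lies outside the annotated gene, nearer to its annotated beginning. That of Fancg began 52 bases before the RefSeq start, inside an annotated exon and therefore not printed. CCAAT, read on both strands and recognised by the factor NF-Y, was present in 18 members (64.3%), against 37.5% of genes. The CHR words TTTGAA and TTCGAA, known from genes of G2 and mitosis, were present in 2 members (7.14%; Bard1 and Atr), against 19.6% of genes. Of the 10 members with an entry that were at least 2-fold lower under the knockdown in IFN-γ, 1 held an E2F word and 7 held CCAAT. Among the 18 other members, 3 held an E2F word and 11 held CCAAT. A match is a letter pattern, not a bound site.

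Knockdown of Prmt7 lowered most of the 37 genes, both with and without IFN-γ. In IFN-γ, 30 members were called lower in siPRMT7 cells than in siLuc cells and 4 higher, by limma at an adjusted p under 0.05, while 38.7% of all 14407 genes tested were called lower and 35.9% higher. Without IFN-γ, 26 members were called lower and 5 higher, against 38.9% and 36.3% of all genes. The median difference over the 37 members was -0.46 on the log2 scale with IFN-γ and -0.40 without it, against a median over all genes of -0.01 in both. Pairs of differences for a gene are given with IFN-γ and then without it. At least 2-fold lower were 14 members with IFN-γ (4.94% of all genes) and 5 without it (3.53%). The same 26 members were lower in both comparisons, which use different libraries, and 31.8% of all genes tested were lower in both. Of the 37 members, 14 were lower in both and fell further with IFN-γ by the interaction test described further on. This held for 5.63% of all genes tested. Among those lower in both, it held for 14 of the 26 members and 811 of the 4582 genes.

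**Figure D1:**
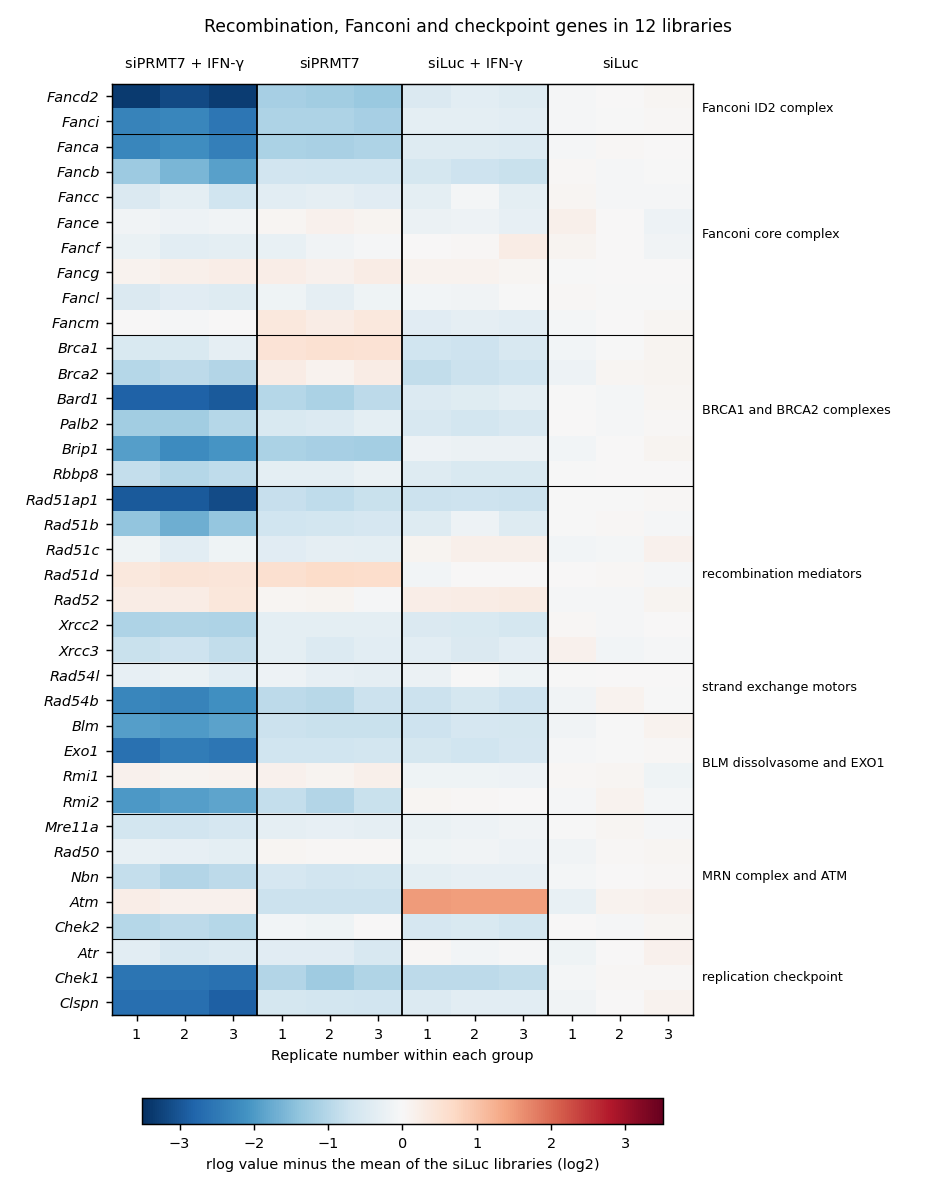
Level of each of the 37 genes in each of the 12 libraries, as the rlog value minus the mean of the 3 untreated siLuc libraries (colour, log2 units), with genes ordered by role. The 3 libraries of siPRMT7 cells with IFN-γ stand below every other library in 24 of the 37 genes, as in 19.5% of all genes tested.

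**Figure D2:**
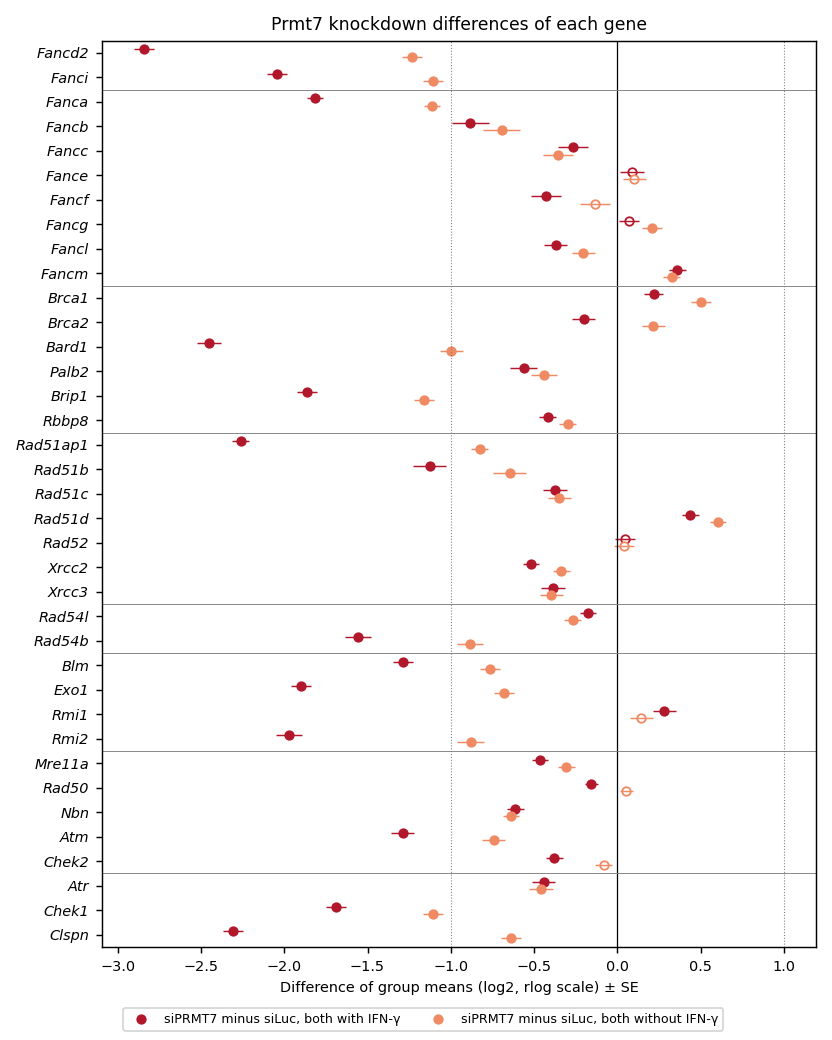
Log2 difference of siPRMT7 minus siLuc cells for each of the 37 genes, with IFN-γ and without it (points), and its standard error (bars), with open points for differences that were not called. Fancd2 lies at -2.84 with IFN-γ and -1.23 without it, while Rad51d lies at 0.44 and 0.61.

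Genes that are read mainly in dividing cells moved in the same direction. The S-phase list (19 genes) had a median difference under the knockdown of -2.11 with IFN-γ, where 17 were lower and 1 higher, and of -1.14 without it, where 18 were lower and 1 higher. The G2 and mitosis list (16 genes) had medians of -2.83 and -1.59, with all 16 lower in both. Of all genes tested, 38.7% were called lower and 35.9% higher with IFN-γ, against 38.9% and 36.3% without it. The mean level of the S-phase list was 9.04 to 9.13 rlog units in siPRMT7 cells with IFN-γ, 10.54 to 10.58 in siPRMT7 cells, 10.85 to 10.89 in siLuc cells with IFN-γ and 11.54 to 11.60 in siLuc cells. The part of this shift in the members' differences was not tested, and in bulk RNA fewer dividing cells and less RNA per cell cannot be told apart.

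Among BRCA1, BRCA2 and their partners, Bard1 and Brip1 fell under the knockdown while Brca1 rose. Bard1 (chromosome 1, 71027498 to 71103146 of GRCm38, minus strand) encodes the partner with which BRCA1 forms a ubiquitin ligase. It stood at 6.62, 6.64 and 6.53 rlog units in siPRMT7 cells with IFN-γ, against 8.99, 9.03 and 9.12 in siLuc cells with IFN-γ. Its values without IFN-γ were 8.47, 8.36 and 8.55 in siPRMT7 cells, against 9.44, 9.40 and 9.52 in siLuc cells. No library of siPRMT7 cells reached the siLuc libraries in either comparison, and the libraries with both treatments were the lowest of the 12. The difference was -2.45 ± 0.07 (SE) with IFN-γ, a 5.47-fold lower level (limma adjusted p = 6.18e-18), and -1.0 ± 0.07 without it (limma adjusted p = 2.48e-11). Brip1, the helicase that binds the BRCT repeats of BRCA1, stood at 8.34, 8.07 and 8.21 in siPRMT7 cells with IFN-γ, against 10.08, 10.06 and 10.07 in siLuc cells with IFN-γ. Without IFN-γ its values were 9.17, 9.10 and 9.08 in siPRMT7 cells, against 10.18, 10.28 and 10.36 in siLuc cells. Its differences were -1.86 ± 0.06 with IFN-γ and -1.16 ± 0.06 without it (limma adjusted p = 1.71e-16 and 4.86e-13), with no overlap of the groups.

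Brca1 itself rose under the knockdown. It stood at 11.17, 11.19 and 11.40 rlog units in siPRMT7 cells with IFN-γ, against 11, 10.98 and 11.14 in siLuc cells with IFN-γ. In the absence of IFN-γ the values were 12.19, 12.23 and 12.22 in siPRMT7 cells, against 11.62, 11.69 and 11.81 in siLuc cells. The groups did not overlap in either comparison, and the differences were 0.22 ± 0.06 and 0.50 ± 0.06 (limma adjusted p = 0.00177 and 6.86e-08). Brca2, which acts in strand exchange, changed sign between the comparisons, with -0.20 ± 0.07 with IFN-γ and 0.22 ± 0.07 without it (limma adjusted p = 0.0106 and 0.00692). The Brca2 value without IFN-γ was 0.124 when siLuc replicate 1 was left out (limma adjusted p = 0.0691), and that with IFN-γ was -0.118 and not called when each library was centred on its median (limma adjusted p = 0.124). Palb2, the bridge between BRCA1 and BRCA2, was lower by both comparisons (-0.56 and -0.44), as was Rbbp8, whose product CtIP starts end trimming (-0.42 and -0.30).

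The genes that assist strand exchange did not all move the same way. Rad51ap1 (chromosome 6, 126923050 to 126939587, minus strand) stood at 7.66, 7.68 and 7.49 rlog units in siPRMT7 cells with IFN-γ, against 9.87, 9.88 and 9.86 in siLuc cells with IFN-γ. Without IFN-γ it stood at 9.79, 9.72 and 9.84 in siPRMT7 cells, against 10.59, 10.59 and 10.65 in siLuc cells. The siPRMT7 libraries with IFN-γ lay more than 2 rlog units below every other library, and the differences were -2.26 ± 0.05 with IFN-γ and -0.83 ± 0.05 without it (limma adjusted p = 5.46e-19 and 1.34e-11).

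Rad51b, Rad51c, Rad51d, Xrcc2 and Xrcc3 encode proteins that act together in small complexes during recombination. Of these 5 genes, 4 fell and 1 rose. Rad51d stood at 9.85, 9.93 and 9.90 rlog units in siPRMT7 cells with IFN-γ, against 9.39, 9.50 and 9.48 in siLuc cells with IFN-γ. Its values without IFN-γ were 10.03, 10.12 and 10.10 in siPRMT7 cells, against 9.48, 9.51 and 9.44 in siLuc cells. All siPRMT7 libraries were above all siLuc libraries, and the differences were 0.44 ± 0.05 and 0.61 ± 0.05 (limma adjusted p = 3.94e-08 and 2.35e-10). Rad51b had the largest fall among these 5, at 6.02, 5.69 and 6.07 in siPRMT7 cells with IFN-γ, against 6.97, 7.23 and 6.97 in siLuc cells with IFN-γ. Its differences were -1.13 ± 0.10 with IFN-γ and -0.65 ± 0.10 without it (limma adjusted p = 2.59e-09 and 8.42e-06). Xrcc2 differed by -0.52 and -0.34, Xrcc3 by -0.39 and -0.40, and Rad51c by -0.37 and -0.35, with and without IFN-γ in that order, and all 6 values passed the test.

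Rad52, which anneals single strands, was not called in either comparison. It stood at 8.83, 8.82 and 8.95 rlog units in siPRMT7 cells with IFN-γ, against 8.79, 8.83 and 8.84 in siLuc cells with IFN-γ. In the absence of IFN-γ the values were 8.62, 8.66 and 8.53 in siPRMT7 cells, against 8.53, 8.51 and 8.65 in siLuc cells. The groups overlapped, with a difference of 0.04 ± 0.06 in each (limma adjusted p = 0.517 and 0.566). The motor proteins RAD54 and RAD54B drive strand exchange. Rad54b stood at 6.54, 6.49 and 6.67 in siPRMT7 cells with IFN-γ, against 8.07, 8.20 and 8.10 in siLuc cells with IFN-γ, a difference of -1.56 ± 0.08 (limma adjusted p = 3.54e-13), and it differed by -0.88 without IFN-γ. Rad54l differed by -0.18 and -0.27, and the value with IFN-γ was -0.093 and not called under median centring (limma adjusted p = 0.107). Rad54b shares 35.8% of its exon bases with Fsbp on the same strand, and Fsbp differed by -0.38 and -0.48. The table's Rad54l line ends at 116100058 on chromosome 4, within a gene annotated to 116123690, and Rad54l shares 15.4% with Lrrc41 on the opposite strand, which differed by 0.29 and 0.13. Reads in bases shared on the same strand cannot be told apart, and no source used here states whether counting used strand to separate genes on opposite strands.

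The FANCD2 and FANCI pair, the target of the Fanconi core complex, fell further than most of the core complex. Fancd2 (chromosome 6, 113531682 to 113597017, plus strand) stood at 7.76, 7.95 and 7.80 rlog units in siPRMT7 cells with IFN-γ, against 10.61, 10.74 and 10.67 in siLuc cells with IFN-γ. Without IFN-γ it stood at 9.94, 9.89 and 9.81 in siPRMT7 cells, against 11.06, 11.11 and 11.18 in siLuc cells. The groups lay far apart, and with IFN-γ the difference was -2.84 ± 0.06, a 7.16-fold lower level (limma adjusted p = 1.8e-20), the largest of the 37. Without IFN-γ it was -1.23 ± 0.06 (limma adjusted p = 2.33e-14), also the largest. Fanci (chromosome 7, 79392312 to 79450264, plus strand) stood at 8.42, 8.46 and 8.21 in siPRMT7 cells with IFN-γ, against 10.42, 10.42 and 10.38 in siLuc cells with IFN-γ. Its values without IFN-γ were 9.67, 9.68 and 9.58 in siPRMT7 cells, against 10.71, 10.74 and 10.78 in siLuc cells. Its differences were -2.04 ± 0.06 and -1.10 ± 0.06 (limma adjusted p = 4.84e-18 and 1.66e-13), again without overlap. Fanci shares 16.0% of its exon bases with Polg on the opposite strand, and Polg differed by -0.30 and -0.31.

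The 8 members of the core complex group fell into lowered, little changed and raised genes. Fanca, a scaffold of the complex, stood at 8.68, 8.80 and 8.59 rlog units in siPRMT7 cells with IFN-γ, against 10.52, 10.51 and 10.48 in siLuc cells with IFN-γ. Its values without IFN-γ were 9.85, 9.84 and 9.88 in siPRMT7 cells, against 10.94, 11 and 10.97 in siLuc cells. The siPRMT7 libraries lay below in both, by -1.82 ± 0.05 and -1.11 ± 0.05 (limma adjusted p = 3.26e-18 and 1.43e-14). Fancb, part of the catalytic module with FANCL, was lower by -0.88 ± 0.11 and -0.69 ± 0.11, and its values of 6.35, 6.02 and 5.71 in siPRMT7 cells with IFN-γ were the most scattered of any member in any group (SD 0.321). Fancl, the ubiquitin ligase itself, differed by -0.37 and -0.20, and the value without IFN-γ was -0.148 and not called without siPRMT7 replicate 2 (limma adjusted p = 0.076). Fancm, the translocase that anchors the complex to DNA, was higher by 0.36 ± 0.05 and 0.33 ± 0.05 (limma adjusted p = 6.8e-07 and 2.52e-06), with siPRMT7 libraries at 9.82 to 9.86 against 9.45 to 9.53 in siLuc libraries in IFN-γ.

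Fancc, Fance, Fancf and Fancg encode adaptor subunits, and their differences were small. Fance was not called in either comparison (0.09 and 0.10; limma adjusted p = 0.257 and 0.188). Without siLuc replicate 1 its value without IFN-γ was 0.185 and was called higher (limma adjusted p = 0.0148). Fancg was higher without IFN-γ by 0.21 (limma adjusted p = 0.00219) and was not called with it (0.07; limma adjusted p = 0.271). Under median centring Fance (0.172) and Fancg (0.153) were called higher in IFN-γ (limma adjusted p = 0.0276 and 0.0178). Fancf was lower with IFN-γ by -0.43 (limma adjusted p = 0.000182) and was not called without it (-0.14; limma adjusted p = 0.167). Under quantile normalization the Fancf value without IFN-γ was -0.272 and was called lower (limma adjusted p = 0.00754). Fancc was called lower in both (-0.26 and -0.35), but its libraries overlapped in IFN-γ, and median centring gave -0.181 there (limma adjusted p = 0.0722). In IFN-γ Fancc stood at 7.68, 7.86 and 7.49 rlog units in siPRMT7 cells, against 7.86, 8.12 and 7.84 in siLuc cells. The authors' deposited table did not call that Fancc difference (log2 fold change -0.30, adjusted p = 0.0888), nor that of Fancl without IFN-γ (-0.22, adjusted p = 0.0808). Opposite-strand genes share 16.4% of the exon bases of Fancc (Gm16133), 15% of Fancf (Gas2), 13.7% of Fancl (Vrk2) and 10.5% of Fanca (Zfp276). Vrk2 was lower by -0.53 and -0.39, and Gas2 was higher by 0.24 and 0.37. Gm16133 (0.05 and -0.18) and Zfp276 (0.04 and -0.05) were not called.

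BLM with RMI1 and RMI2 dissolves crossed recombination intermediates, and EXO1 digests the ends of a break. Exo1 (chromosome 1, 175880581 to 175913489, plus strand) stood at 7.22, 7.37 and 7.28 rlog units in siPRMT7 cells with IFN-γ, against 9.2, 9.13 and 9.24 in siLuc cells with IFN-γ. In the absence of IFN-γ the values were 9.13, 9.11 and 9.17 in siPRMT7 cells, against 9.78, 9.80 and 9.87 in siLuc cells. Its level was lower in every siPRMT7 library, by -1.9 ± 0.06 and -0.68 ± 0.06 (limma adjusted p = 2.93e-17 and 8.89e-10). Rmi2 stood at 5.98, 6.07 and 6.15 in siPRMT7 cells with IFN-γ, against 8.06, 8.04 and 8.01 in siLuc cells with IFN-γ. Without IFN-γ it stood at 7.16, 6.98 and 7.22 in siPRMT7 cells, against 7.95, 8.11 and 7.93 in siLuc cells. Its differences were -1.97 ± 0.08 and -0.88 ± 0.08 (limma adjusted p = 1.05e-14 and 6.05e-09), without overlap. Blm was lower by -1.29 and -0.76. Rmi1, the scaffold of the complex, went the other way, at 7.96, 7.89 and 7.91 in siPRMT7 cells with IFN-γ, against 7.64, 7.66 and 7.61 in siLuc cells with IFN-γ, a difference of 0.28 ± 0.07 (limma adjusted p = 0.00166). Without IFN-γ its difference was 0.14 and was not called (limma adjusted p = 0.0831), but was called under median centring (0.182; limma adjusted p = 0.0283). Rmi1 and Rmi2 were thus called in opposite directions in IFN-γ. Rmi1 shares 5.0% of its exon bases with Hnrnpk on the opposite strand, which differed by -0.38 and -0.49. The table's Rmi2 line covers chromosome 16 from 10835059 to 10843238 and ends before the annotated gene, at 10892966.

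The MRE11, RAD50 and NBN proteins form the complex that binds broken ends and activates the kinase ATM, which signals through CHK2. Mre11a was lower by -0.46 and -0.31 and Nbn by -0.61 and -0.64, while Rad50 was lower by -0.16 with IFN-γ (limma adjusted p = 0.00256) and was not called without it (0.05; limma adjusted p = 0.263). Under median centring the Rad50 value with IFN-γ was -0.072 and was not called (limma adjusted p = 0.134), and under quantile normalization that without IFN-γ was 0.16 and was called higher (limma adjusted p = 0.000971). Chek2 was lower by -0.38 with IFN-γ (limma adjusted p = 1.74e-06) and was not called without it (-0.08; limma adjusted p = 0.163). Atm (chromosome 9, 53439149 to 53533966, minus strand) stood at 11.43, 11.34 and 11.36 rlog units in siPRMT7 cells with IFN-γ, against 12.70, 12.65 and 12.66 in siLuc cells with IFN-γ. Its values without IFN-γ were 10.46, 10.46 and 10.45 in siPRMT7 cells, against 10.93, 11.31 and 11.36 in siLuc cells. The siPRMT7 libraries were lower in both, by -1.29 ± 0.07 and -0.74 ± 0.07 (limma adjusted p = 4.48e-13 and 3.7e-09), with siLuc replicate 1 below the other siLuc libraries.

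The replication checkpoint genes were lower in both comparisons. Clspn (chromosome 4, 126556935 to 126593903, plus strand) encodes claspin, the adaptor through which ATR activates CHK1. It stood at 7.84, 7.86 and 7.63 rlog units in siPRMT7 cells with IFN-γ, against 10.02, 10.11 and 10.12 in siLuc cells with IFN-γ. In the absence of IFN-γ the values were 9.88, 9.84 and 9.83 in siPRMT7 cells, against 10.38, 10.50 and 10.60 in siLuc cells. Its differences were -2.31 ± 0.06 and -0.64 ± 0.06 (limma adjusted p = 5.07e-18 and 9.11e-09), and the groups were apart in both. Chek1, the kinase itself, stood at 7.38, 7.37 and 7.32 in siPRMT7 cells with IFN-γ, against 9.03, 9.03 and 9.07 in siLuc cells with IFN-γ. Without IFN-γ it stood at 8.91, 8.70 and 8.88 in siPRMT7 cells, against 9.86, 9.97 and 9.98 in siLuc cells. Its differences were -1.69 ± 0.06 and -1.10 ± 0.06 (limma adjusted p = 9.42e-16 and 1.17e-12), again with no shared range. Atr, the sensor kinase at the top of this branch, differed by only -0.44 and -0.46.

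**Figure D3:**
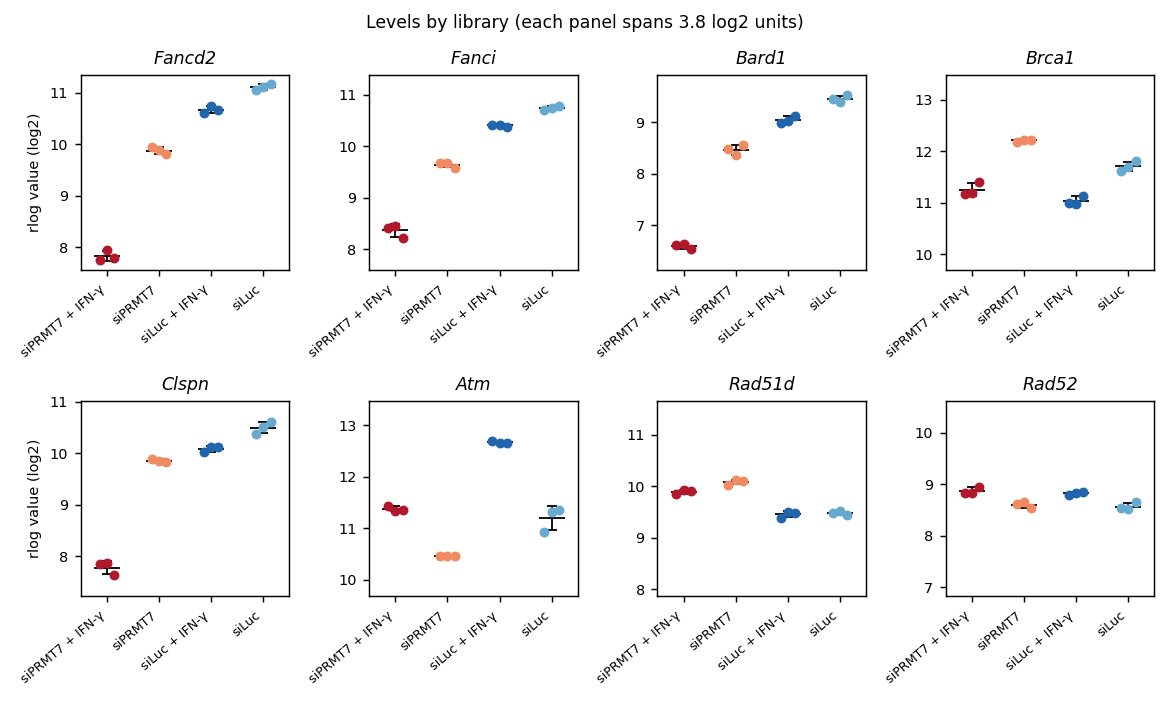
Rlog level (log2 scale) of 8 members in each library, by group, with points for libraries and dashes with bars for the group mean and SD (n = 3). The siPRMT7 libraries with IFN-γ are the lowest of the 12 for Fancd2, Fanci, Bard1 and Clspn, and Atm is highest in siLuc libraries with IFN-γ.

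Adding IFN-γ lowered most members in both siRNA groups. In siPRMT7 cells 28 members were called lower with IFN-γ than without it and 2 higher, against 28.6% and 28.0% of all genes, with a median of -0.71 and 12 members at least 2-fold lower (2.69% of all genes). In siLuc cells 27 were called lower and 2 higher, against 32.7% and 28.0% of all genes, with a median of -0.35 and none at least 2-fold lower (1.01% of all genes). The 6 largest falls in siPRMT7 cells were those of Rad51ap1 (-2.17), Clspn (-2.07), Fancd2 (-2.05), Bard1 (-1.86), Exo1 (-1.85) and Chek1 (-1.48). The 6 largest in siLuc cells were those of Chek1 (-0.89), Brca2 (-0.77), Rad51ap1 (-0.74), Fancb (-0.70), Rad54b (-0.69) and Brca1 (-0.67). The S-phase list had medians of -1.58 in siPRMT7 cells and -0.79 in siLuc cells, and the G2 and mitosis list of -1.87 and -0.70. Their part in these differences was not tested.

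Atm and Rad52 were the members that rose with IFN-γ. Atm was higher by 0.92 ± 0.07 in siPRMT7 cells and by 1.47 ± 0.07, or 2.76-fold, in siLuc cells (limma adjusted p = 2.14e-10 and 6.89e-14). Rad52 was higher by 0.26 ± 0.06 in each (limma adjusted p = 0.00104 and 0.00114), with no overlap of its IFN-γ libraries and the libraries without IFN-γ. Not called in siPRMT7 cells were Rad51c (0.13), Rad54l (-0.03), Fancc (-0.16), Fancf (-0.18), Fancg (-0.04), Atr (-0.02) and Rmi1 (-0.02). Not called in siLuc cells were Rad51c (0.15), Rad51d (-0.02), Fancf (0.11), Fancg (0.10), Fancl (-0.09), Atr (-0.04), Rmi1 (-0.16) and Rmi2 (0.04). Leaving out 1 library added calls for Rad51c (0.199), Fancc (-0.249) and Fancf (-0.243) in siPRMT7 cells, the first pair without siPRMT7 replicate 2 with IFN-γ and Fancf without siPRMT7 replicate 1. In siLuc cells, leaving out siLuc replicate 3 added calls for Rad51c (0.225) and Rmi1 (-0.226), and leaving out siLuc replicate 1 ended those of Fance (-0.139) and Fancc (-0.214). In siLuc cells the authors' deposited table called 22 members lower and 2 higher, and the 5 whose call differed were Rad54l, Fancc, Fance, Mre11a and Rad50, all lower by 0.25 or less on the log2 scale.

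The response to IFN-γ in siPRMT7 cells minus that in siLuc cells was tested as an interaction. It was called negative for 18 of the 37 members and positive for 0 by limma (0 also at an unadjusted p under 0.05), against 16.5% and 14.1% of all genes, and 6 members passed 2-fold (1.94% of all genes). These were Clspn (-1.67 ± 0.09), Fancd2 (-1.61 ± 0.08), Bard1 (-1.45 ± 0.10), Rad51ap1 (-1.43 ± 0.08), Exo1 (-1.22 ± 0.08) and Rmi2 (-1.09 ± 0.12), with limma adjusted p between 8.69e-13 and 3.69e-07. Fancd2, for example, fell by 2.05 with IFN-γ in siPRMT7 cells and by 0.44 in siLuc cells. Rmi2 had no called response in siLuc cells (0.04, limma adjusted p = 0.713) and fell by 1.05 in siPRMT7 cells. Atm also had a negative interaction (-0.55 ± 0.10, limma adjusted p = 0.000194), since its rise was smaller in siPRMT7 cells. The S-phase list had a median interaction of -0.93 and the G2 and mitosis list of -1.22, and their part in the members' values was not tested. The 19 members without a called interaction included Rad51c, Rad51d, Xrcc2 and Xrcc3, 7 of the 8 core complex genes, and Rad52, Rad54l, Palb2, Rbbp8, Mre11a, Nbn, Atr and Rmi1.

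**Figure D4:**
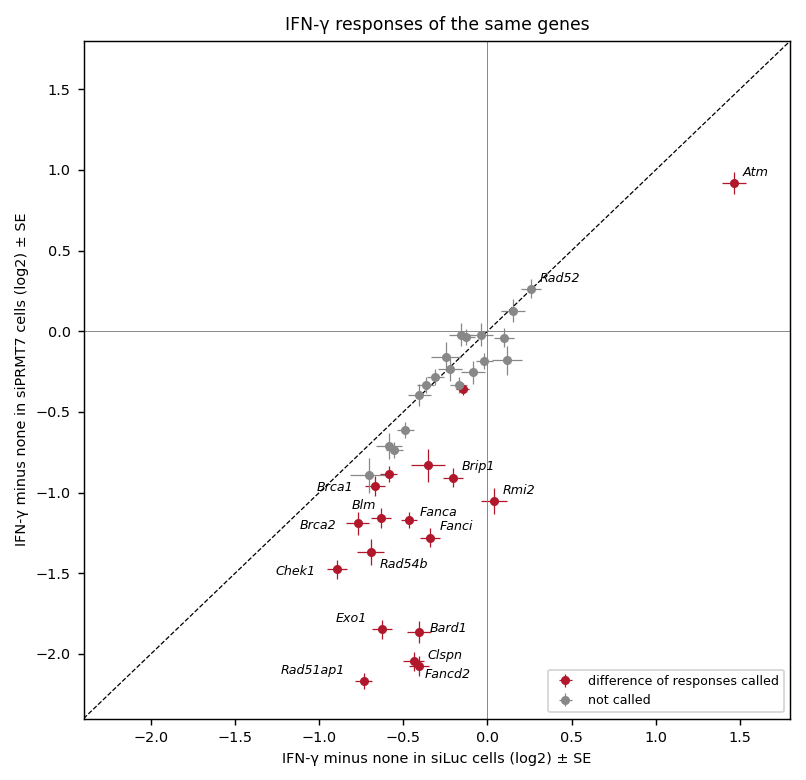
Log2 difference with IFN-γ minus without it for each member in siPRMT7 cells, plotted against the same difference in siLuc cells, with bars for the standard errors and a dashed line of equal response. Clspn, Fancd2, Bard1, Rad51ap1 and Exo1 lie furthest below the line, and Atm lies alone at the right with 0.92 in siPRMT7 cells and 1.47 in siLuc cells.

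Most members were lower in siPRMT7 cells with IFN-γ than in untreated siLuc cells. This comparison uses the same libraries as those above. It called 30 members lower and 4 higher, against 40.6% of all genes in each direction, with a median of -0.92 and 16 members at least 2-fold lower (8.57% of all genes). In 24 of the 37 members every siPRMT7 library with IFN-γ lay below every library of the other 3 groups, which held for 19.5% of all genes. The largest differences were those of Fancd2 (-3.28, 9.70-fold lower), Rad51ap1 (-3.0, 7.98-fold), Bard1 (-2.86, 7.25-fold), Clspn (-2.72, 6.57-fold), Chek1 (-2.58, 5.98-fold) and Exo1 (-2.53, 5.76-fold). Called higher were Rad51d (0.42), Rad52 (0.30), Atm (0.18) and Fancg (0.17), and not called were Fance (-0.14), Rmi1 (0.12) and Fancm (-0.01). Atm overlapped between the groups, and its difference was 0.042 without siLuc replicate 1 (limma adjusted p = 0.306). The Rad51c difference (-0.22) was -0.148 and not called without siLuc replicate 3, where that of Fance was -0.219 and called lower (limma adjusted p = 0.0625 and 0.00438). The authors' deposited table gave log2 fold changes of -3.47 for Fancd2, -3.26 for Bard1 and -3.20 for Rad51ap1 in this comparison, and called neither Atm nor Fancg.

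Per kilobase of transcript, on the linear scale of 2 raised to the rlog value, the members spanned a wide range of levels. In siPRMT7 cells with IFN-γ the level of Rad51ap1 was 88.3 per kilobase, against 704 in untreated siLuc cells, where it was the highest of the 37. Brca1 was at 375 in siPRMT7 cells with IFN-γ, against 513 in siLuc cells. Fancd2 was at 42.1 against 409, and Bard1 at 17.2 against 125, in the same groups. Atm was at 274 in siPRMT7 cells with IFN-γ and 145 without it, against 670 in siLuc cells with IFN-γ and 243 without it. The lowest in siLuc cells were Rmi1 (57.8), Fancb (66.2) and Rmi2 (68.4).

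Among other genes of these pathways, listed apart from the members, those of recombination and the checkpoint mostly fell under the knockdown. Over all genes tested, 38.7% were called lower and 35.9% higher with IFN-γ, and 38.9% and 36.3% without it. Of 33 other recombination genes tested, 22 were lower and 5 higher under the knockdown with IFN-γ (median -0.48), and 24 lower and 7 higher without it (median -0.41). Parpbp, which restrains recombination, was lower by -2.47 and -1.47, and Gen1, a resolvase of recombination intermediates, by -2.33 and -1.0. Mcm9 (0.03 and 0.10) and Swsap1 (-0.14 and -0.05) were not called. Of 19 other Fanconi pathway genes, 9 were lower and 7 higher with IFN-γ (median -0.12), and 9 lower and 6 higher without it (median 0.01). Ube2t, the conjugating enzyme for FANCD2, was lower by -1.54 and -0.96, and Usp1, which removes the ubiquitin again, by -1.12 and -0.97, while Poln, a DNA polymerase, was higher by 1.28 and 1.67. Ercc1 (-0.12), Dclre1a (0.07) and Fan1 (-0.08) were not called with IFN-γ. Of 20 other checkpoint genes, 16 were lower in each comparison (medians -0.91 and -0.58), among them Timeless (-2.05 and -1.13), Rpa1 (-1.31 and -0.95) and Topbp1 (-1.13 and -0.56).

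Lists of repair routes that do not use recombination had medians between -0.63 and -0.07 under the knockdown with IFN-γ, against -0.46 for the members. The shares over all genes tested were 38.7% lower and 35.9% higher with IFN-γ, and 38.9% and 36.3% without it. Of 17 genes of non-homologous end joining, 9 were lower and 6 higher under the knockdown with IFN-γ (median -0.15), and 8 lower and 5 higher without it (median 0.00). The Ku subunits parted: Xrcc6 (Ku70) was lower by -1.01 and -0.89 and Xrcc5 (Ku80) higher by 0.70 and 0.55. Of 21 nucleotide excision repair genes, 8 were lower and 6 higher with IFN-γ (median -0.07). Of 20 base excision repair genes, 12 were lower and 6 higher (median -0.42), and of 7 mismatch repair genes, 5 were lower and 1 higher (median -0.63). Of 12 p53 target genes tested, 11 were higher and 1 lower with IFN-γ (median 0.78), led by the cell cycle inhibitor Cdkn1a (1.34 and 1.04). Of 20 genes of the E2F, RB and MuvB group, 14 were lower and 4 higher with IFN-γ (median -0.41). At least 2-fold lower were 7 of them, against 4.94% of all genes. Among those 7 were Foxm1 (-2.64 and -1.19), E2f8 (-2.49 and -0.95) and Mybl2 (-2.24 and -1.61). No test set these lists against the members.

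**Figure D5:**
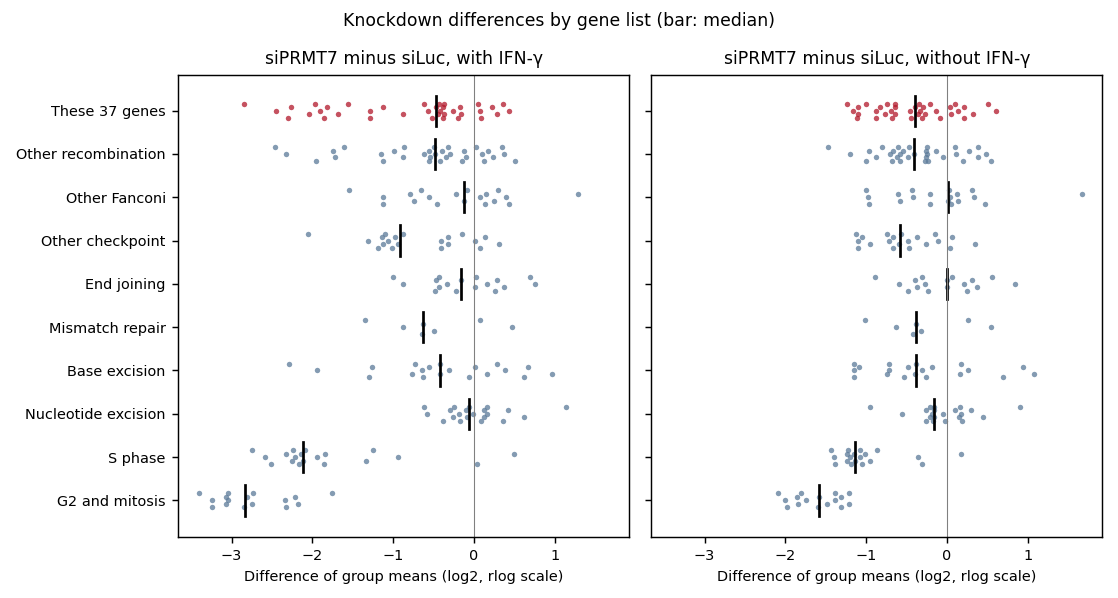
Log2 difference under the knockdown of each gene (points) in the members' list and the other lists, with the median of each list (line), with IFN-γ and without it. The members' medians are -0.46 and -0.40, those of the S-phase list -2.11 and -1.14, and those of nucleotide excision repair -0.07 and -0.15.

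Most markers of other cell types were below the filter on low values. Of 8 leukocyte markers, Cd3e and Adgre1 were listed at 0 in every library, and 2 (Cd68 and Csf1r) passed the filter. The summed level of the leukocyte list on the linear scale was 568 to 594 in siPRMT7 cells with IFN-γ, 453 to 532 in siPRMT7 cells, 351 to 410 in siLuc cells with IFN-γ and 414 to 427 in siLuc cells. It was 281354 or more for the melanocytic list in every library. Cd68, a lysosomal protein of macrophages, was higher under the knockdown by 1.85 with IFN-γ and 1.20 without it. Csf1r was higher by 0.35 with IFN-γ and was not called without it (0.08). Ptprc, which marks all leukocytes, stayed below 0 rlog units. Of 7 fibroblast, endothelial and keratinocyte markers, 3 passed the filter (Col1a1, Col1a2 and Pdgfra). The list had sums of 650 to 778, 980 to 1106, 272 to 307 and 670 to 826 in the same 4 groups. Col1a2 had the highest level of the 3, with means of 9.26, 9.88, 7.64 and 9.26 rlog units. The part of these genes in the members' differences was not tested.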

How the data were processed

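RNA from 12 libraries of B16.F10 cells was sequenced after a stranded mRNA preparation, per the labels' protocols. The submitters' processing notes name Trimmomatic 0.39, STAR 2.7.1a, HOMER 4.11.1, DESeq2 1.26.0 and the builds mm10 and GRCm38, with no settings given in the sources used here. The authors deposited log2-scale values made by DESeq2's regularised logarithm (rlog, from -2.22 to 17.9), and for each pair of groups a log2 fold change, a p-value and an adjusted p-value. No read counts were used here, so count tests were not run and the number of reads behind a value is unknown beyond the library totals in the file headers.

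The member genes, the other lists and the tests were chosen with earlier results of these data known. Of the lines of each of 115 repeated symbols, only that with the greatest mean was used. A total of 14407 genes with a mean of at least 4 rlog units were fitted with limma 3.58.1 in R 4.3.3, by group means with a mean-variance trend. P-values were adjusted by Benjamini and Hochberg over all of them and called at 0.05, without a block for replicate numbers. The fit had 8 residual degrees of freedom and a median residual SD of 0.0751, and it was checked on simulated data. No set test was run. A gene of the other recombination list is not reported here. Coordinates of genes are GRCm38. The text accounts for all 37 members and names, per comparison, the 6 largest called rises, the 6 largest called falls and the members not called, and from other lists mainly those with the smallest p and some not called. Alternatives were other minimum levels (2, 6, none), quantile normalization, median centring, no trend, only the groups compared, a replicate block, and each library left out in turn. The table's own genes overlapping members were found in GENCODE vM21 as shared exon bases of at least 5%.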

Additional observations from a re-analysis of the deposited data

Results flagged for a closer look

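For 18 of the 37 members the response to IFN-γ differed between siPRMT7 and siLuc cells by the interaction test (limma, adjusted p under 0.05), and all 18 values were negative, against 16.5% of all genes tested called negative and 14.1% called positive. Each value below is the log2 response in siPRMT7 cells minus that in siLuc cells. The checkpoint genes Clspn, Chek1 and Chek2 had -1.67, -0.58 and -0.29. In the Fanconi group Fancd2 had -1.61, Fanci -0.94 and Fanca -0.70. Among BRCA1 and BRCA2 and their partners, Bard1 had -1.45, Brip1 -0.70, Brca2 -0.42 and Brca1 -0.29. Among genes that assist strand exchange, Rad51ap1 had -1.43, Rad54b -0.67 and Rad51b -0.48. Exo1 had -1.22, Rmi2 -1.09 and Blm -0.52. Rad50 had -0.21. Atm had -0.55 and is the 1 member of the 18 that rose with IFN-γ in both siRNA groups. The Brca1 value was no longer called without the filter on low values or without the mean-variance trend (-0.288 in both, limma adjusted p = 0.052 and 0.0506). The Rad51b value was no longer called without siLuc replicate 2 with IFN-γ (-0.393, limma adjusted p = 0.0511) or without siPRMT7 replicate 2 with IFN-γ (-0.362, limma adjusted p = 0.0508).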

How the results depend on the processing

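No member's called difference changed sign under any alternative. The members' median under the knockdown with IFN-γ was -0.38 with median centring, against -0.46 as reported, and the median for IFN-γ in siLuc cells was -0.41 with quantile normalization, against -0.35. With each library left out in turn, the median for IFN-γ in siPRMT7 cells ran between -0.74 and -0.65, the last without siPRMT7 replicate 3. Quantile normalization gave 1 member with a positive interaction, Rmi1 (0.31, limma adjusted p = 0.0196). The cause of these shifts was not tested. Replicate numbers, which the file headers give as series, were not taken to pair the libraries. The reason is that no label says whether a series is a shared culture or day. Correlations of deviations from group means between same-numbered libraries ran between -0.124 and 0.224 (median 0.063). Of these 18 values 14 were positive, as were all 6 within an siRNA. Over 36 pairs of different numbers they ran between -0.153 and 0.155 (median -0.021). No test of pairing was run. A replicate block gave 30 members lower and 4 higher under the knockdown with IFN-γ, 26 and 5 without it, and 18 lower in the interaction, the same counts as without the block. Fitting only the groups compared gives no interaction value. Counts are not given in the table, so sampling error could not be separated from other spread, and the shrinkage of rlog values limits what can be read from Rmi2, Rad51b, Fancb and other weakly expressed members. In siLuc cells the fall of Rad54l with IFN-γ (-0.13) and that of Fancc (-0.25) passed the test only under some settings, as did the difference of Atm between siPRMT7 cells with IFN-γ and untreated siLuc cells.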
